A study of Rattus norvegicus with 45 samples.

Results

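Gene families that hold the export pumps and uptake carriers of drugs, bile salts, lipids and organic ions were examined in livers of rats. The rats were given a large oral dose of acetaminophen (APAP). The genes were picked by a rule on their symbols, which was set with earlier results of these data known. It took every ATP-binding cassette (ABC) gene of families Abca to Abcg and every organic anion carrier gene of the Slco family. It also took every Slc22 and Slc47 organic ion carrier gene on the array, and it left out Abcc3 and Abcb11. The rule found 60 genes of 13877 measured. There were 33 ABC genes (8 Abca, 6 Abcb, 7 Abcc, 4 Abcd, 1 Abce, 2 Abcf and 5 Abcg) and 27 uptake genes (12 Slco and 15 Slc22), and 0 genes had an Slc47 symbol. The Abce and Abcf genes encode soluble ABC proteins and not membrane pumps. They stayed in all counts, and "transporter genes" below means all 60.

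Uptake carriers of the Slco (OATP) and Slc22 (OCT, OAT and OCTN) families bring organic anions, organic cations and carnitine from blood into hepatocytes. ABC pumps spend ATP to move substrates out, either across the canalicular membrane into bile (P-glycoprotein, Mrp2, Bcrp, the phospholipid floppase encoded by Abcb4 and the sterol pump made of Abcg5 and Abcg8) or back across the basolateral membrane into blood (Mrp4 and Mrp6). APAP is cleared largely as glucuronide and sulphate conjugates, which leave the hepatocyte through Mrp pumps, while a minor oxidised product, NAPQI, is captured by glutathione or binds to protein.

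All animals were male Sprague-Dawley rats, 5 weeks old, that had fasted for 16 h, and dosed animals were fed again afterwards. APAP rats received 1000 mg/kg by oral gavage in 1% hydroxyethylcellulose and were killed 3, 6, 9 or 24 h later, vehicle rats received hydroxyethylcellulose alone and were killed at the same times, and baseline rats were untreated and killed at 0 h. Each of the 9 groups held 5 animals with 1 liver array each. At 3, 6 and 9 h vehicle animals differ from baseline animals in gavage, feeding and time of day together, and these cannot be told apart. At 24 h a full day had passed since dosing, and gavage and feeding still differ together. Clock times of killing were not given. Levels are log2 intensities after robust multi-array averaging (RMA), on which 1 unit is a doubling. A gene was called when limma gave an adjusted p under 0.05 over all 13877 genes together with a change of at least 1.5-fold.

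Arrays of the same group correlated at 0.983 to 0.996 over all genes. The list of 7 hepatocyte markers averaged between 14.27 and 14.49 on every array, and 0 of the 7 were called at any time with APAP. These levels lie near the highest value measured, 15.07, and whether a loss would show at such levels was not tested. Markers of other cells moved. At 9 h the 5 erythroid and platelet markers averaged 8.43 to 10.16 in APAP livers (median 9.77), against 8.52 to 8.98 in vehicle livers, and the 5 measured neutrophil and monocyte markers of 7 averaged 5.61 to 6.85 in APAP livers, against 5.51 to 5.91 in vehicle livers. The 6 stellate cell and fibroblast markers averaged 7.62 to 7.93 in APAP livers at 6 h, against 8.05 to 8.24 in vehicle livers, 7.58 to 7.73 in APAP livers at 9 h, against 8.06 to 8.27 in vehicle livers, and 7.71 to 8.04 in APAP livers at 24 h, against 8.14 to 8.47 in vehicle livers, without overlap at any of these times. At 9 h, 2 erythroid and platelet markers and 1 neutrophil and monocyte marker were called higher, 1 of the 6 stellate markers (Lrat) and 1 of the 4 measured endothelial markers (Kdr) were called lower, and 1 higher and 1 lower were called among 5 measured Kupffer cell and macrophage markers and likewise among 5 cholangiocyte markers. At 24 h, 3 stellate markers (Lrat, Col1a1 and Col3a1), 1 Kupffer cell marker (Adgre1) and 1 erythroid marker (Alas2) were called lower. At 6 h Lrat was called lower and Lyve1 (endothelial) and Cd163 (Kupffer cell) higher, and at 3 h Cd163 alone was called, also higher. None of the 4 measured lymphocyte markers was called at any time (0 of 4). Whole liver was measured, so fewer cells of a type and less RNA per cell cannot be told apart, and the part of these shifts in the results below was not tested.

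With APAP, 23 of the 60 genes were called at 1 or more times: 14 of the 33 ABC genes and 9 of the 27 uptake genes. This was 38.3% of the 60 genes, against 23.4% of all genes. Of these, 7 were higher and 16 were lower than in vehicle livers (12.2% of all genes were called higher and 11.9% lower at any of the times), and none changed direction between calls. The calls numbered 5 at 3 h (2 higher and 3 lower, 8.33% of the 60 genes, against 6.32% of all genes), 14 at 6 h (3 higher and 11 lower, 23.3% against 14.1%), 17 at 9 h (4 higher and 13 lower, 28.3% against 17.1%) and 7 at 24 h (4 higher and 3 lower, 11.7% against 3.4%). By direction, the shares of all genes called higher were 3.34%, 7.06%, 8.65% and 1.56% at 3, 6, 9 and 24 h, and those called lower were 2.98%, 7.04%, 8.47% and 1.84%. The higher calls were mostly ABC genes, with Slc22a5 as the exception, and the lower calls fell in both families. The median log2 fold change over the 60 genes was -0.08, -0.15, -0.09 and 0.00 at 3, 6, 9 and 24 h, beside -0.02, -0.04, -0.03 and 0.01 over all genes. The balance at 9 h and 24 h moved with the scaling of the arrays, and so did that of all genes. After cyclic loess normalization 5 of the 60 genes were higher and 9 lower at 9 h, beside 1338 and 1005 of all genes. After centring each array on 6 ribosomal protein genes, which puts the median of all genes at -0.14 at 9 h and -0.545 at 24 h, 3 were higher and 18 lower at 9 h, and 2 higher and 25 lower at 24 h. Over all genes this centring gave 915 higher and 1581 lower at 9 h, and 40 higher and 5110 lower at 24 h. Before centring, the 6 ribosomal protein genes themselves averaged higher in APAP than in vehicle livers at 9 and 24 h. The centring takes that difference off every gene, so a call lost by it depends on the reference chosen. Which scaling is nearer the true levels was not tested.

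**Figure D1:**
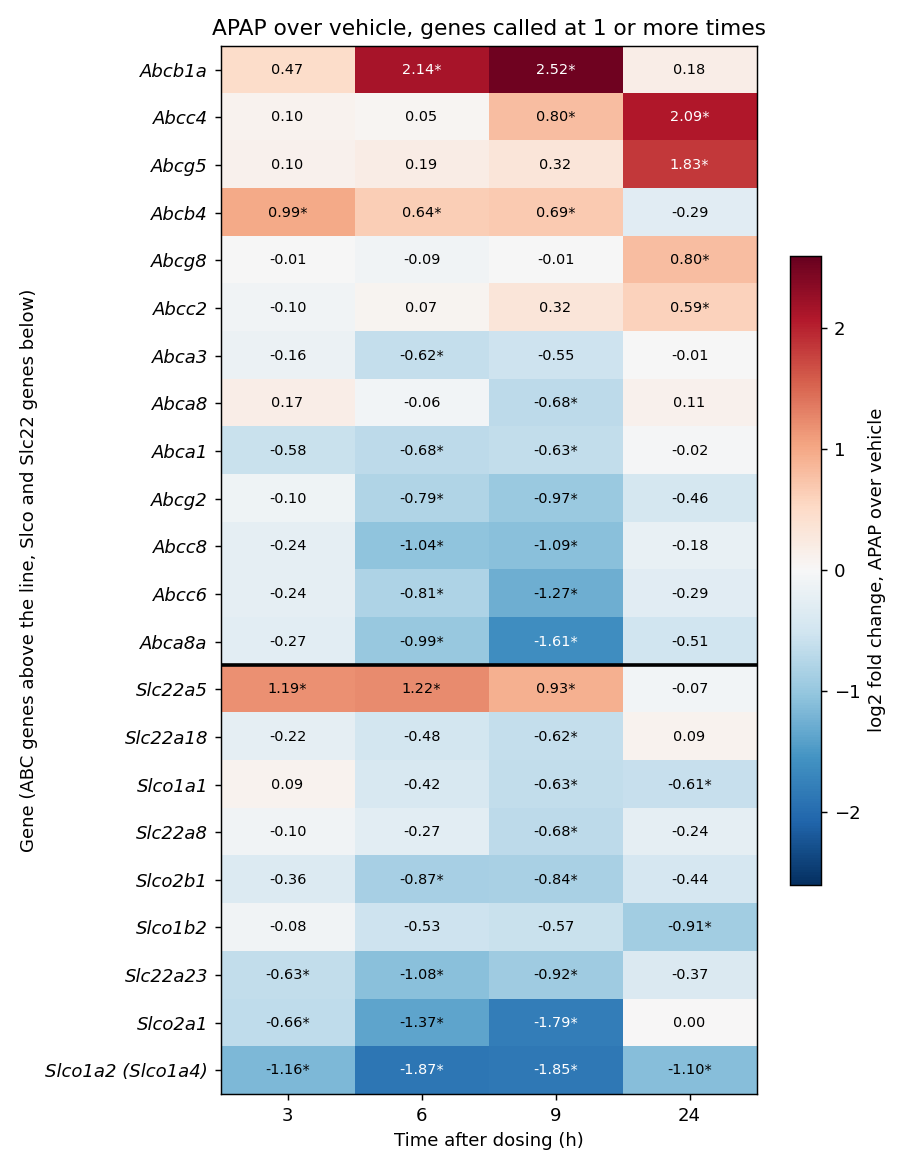
Log2 fold change, APAP over vehicle, of 22 genes called at 1 or more of 4 times after dosing (columns, in h); ABC genes stand above the black line and Slco and Slc22 genes below it, red is higher and blue lower in APAP livers, and an asterisk marks a call. Abcb1a is highest at 6 and 9 h, Abcc4 and Abcg5 at 24 h, and Slco1a2 is the gene marked at all 4 times.

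Abcb1a, which encodes a P-glycoprotein that pumps many hydrophobic drugs into bile, had the largest increase among the 60 genes. Abcb1b was not analysed here, and how well the array separates Abcb1a from it was not tested. At 6 h the level of Abcb1a was 9.43, 8.95, 8.84, 8.92 and 9.02 in the 5 APAP livers, against 7.04, 6.98, 6.82, 6.96 and 6.67 in the 5 vehicle livers. At 9 h it was 9.45, 9.32, 9.25, 9.30 and 9.17 in APAP livers, against 6.80, 7.27, 6.61, 6.49 and 6.70 in vehicle livers. Every APAP liver lay above every vehicle liver at both times. The increase was 4.40-fold at 6 h (log2 fold change 2.14 ± 0.11 SE, adjusted p = 2.57e-08) and 5.75-fold at 9 h (2.52 ± 0.12 SE, adjusted p = 2.21e-08). At 3 h the difference was 0.47 ± 0.15 SE, under the fold threshold with overlapping groups (adjusted p = 0.0385), and at 24 h it was 0.18 ± 0.17 SE (adjusted p = 0.609). The test of the APAP effect between times gave 1.67 ± 0.20 SE for 6 h minus 3 h (adjusted p = 1.21e-05) and -2.35 ± 0.22 SE for 24 h minus 9 h (adjusted p = 9.07e-08). Of the transcription factors listed as regulators of these transporters, the xenobiotic receptor Nr1i2 (PXR), which is known to induce P-glycoprotein, was higher in APAP livers at 3 h (0.90 ± 0.10 SE, adjusted p = 3.25e-05) and 6 h (0.92 ± 0.09 SE, adjusted p = 4.86e-06). At 9 h, 0 of the 16 measured regulators were called higher. A link between Nr1i2 and Abcb1a was not tested.

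The RefSeq start-site window of Abcb1a is shown because the gene had the largest increase. These are the 250 bases before the annotated start on the minus strand (GRCr8, chr4:26397649-26397898), with a match to the AP-1 site TGACTCA in capitals, read here on the opposite strand as TGAGTCA; this start lies inside the annotated span of the gene, so other starts exist.
Abcb1a: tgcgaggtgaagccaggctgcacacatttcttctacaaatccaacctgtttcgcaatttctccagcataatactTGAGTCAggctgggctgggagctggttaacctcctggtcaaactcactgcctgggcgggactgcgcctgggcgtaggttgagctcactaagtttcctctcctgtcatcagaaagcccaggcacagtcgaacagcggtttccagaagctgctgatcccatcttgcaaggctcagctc
The motif was present on either strand in 4.63% of all 33469 RefSeq rat windows of 300 bases (250 before and 50 after the start) and in 2 of the 50 windows found for the 60 genes (4.0%), the other one being that of Slco1a5.

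Abcc4, which encodes Mrp4, a basolateral pump for conjugates and bile salts, rose later. At 24 h its level was 8.61, 7.74, 9.80, 8.66 and 8.70 in APAP livers, against 6.69, 6.58, 6.62, 6.77 and 6.40 in vehicle livers. The groups did not overlap, and replicate 3 of APAP was the highest of all. The difference was 4.25-fold (2.09 ± 0.28 SE, adjusted p = 0.000578). At 9 h the APAP livers were uneven, with 6.88, 7.90, 8.13, 6.71 and 6.54, against 6.31, 6.44, 6.43, 6.38 and 6.58 in vehicle livers. Replicates 2 and 3 stood above the other 3 APAP livers, whose lowest value lay inside the vehicle range. The 9 h call (0.80 ± 0.27 SE, adjusted p = 0.0313) was lost without APAP replicate 2 (0.63, adjusted p = 0.0721) or replicate 3 (0.58, adjusted p = 0.0577), and likewise without any of vehicle replicates 1, 2, 3 and 4 (adjusted p = 0.061, 0.0532, 0.0564 and 0.0596). At 3 and 6 h the differences were 0.10 ± 0.10 and 0.05 ± 0.11 SE. The effect was larger at 24 h than at 9 h by 1.29 ± 0.42 SE (adjusted p = 0.0235). The basolateral pump Abcc3 (Mrp3), which was left out by the rule, differed by 0.75 at 9 h and 2.27 at 24 h.

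Abcc2 encodes Mrp2, the canalicular pump for glucuronide and glutathione conjugates, and its level was above baseline in both APAP and vehicle livers at 6, 9 and 24 h. In vehicle livers at 6 h its level was 10.71, 10.29, 11.31, 10.46 and 10.88, against 9.36, 9.85, 9.43, 9.72 and 9.59 at baseline. It was called higher in vehicle than in baseline livers at 6 h (2.21-fold), 9 h (2.21-fold) and 24 h (2.03-fold), with adjusted p between 7.37e-05 and 0.000288. Against vehicle, APAP differed by -0.10, 0.07 and 0.32 at 3, 6 and 9 h. At 24 h it was 11.19, 10.80, 11.24, 11.31 and 11.48 in APAP livers, against 10.89, 10.96, 10.59, 10.32 and 10.31 in vehicle livers, and the groups overlapped through APAP replicate 2 and vehicle replicates 1 and 2. That 1.51-fold difference (0.59 ± 0.15 SE, adjusted p = 0.0289) was called at the edge of both thresholds and was lost in 7 of the 10 fits that left out an animal, namely APAP replicate 1, 3, 4 or 5 or vehicle replicate 3, 4 or 5, where it lay between 0.51 and 0.59 with adjusted p between 0.0484 and 0.0701. It was 0.53 after cyclic loess normalization and 0.04 after ribosomal centring, neither of them called.

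Among the other named Abcc genes, a pair was lower with APAP. Abcc6 encodes Mrp6, a basolateral protein of hepatocytes needed for ATP release and for restraining tissue calcification. At 9 h its level was 9.94, 10.19, 10.18, 10.06 and 9.90 in APAP livers, against 11.33, 11.36, 11.24, 11.39 and 11.27 in vehicle livers. The groups were more than 1 unit apart, a 2.40-fold decrease (-1.27 ± 0.07 SE, adjusted p = 3.80e-08). It was also lower at 6 h (-0.81 ± 0.08 SE, adjusted p = 5.88e-06), and the effect had shrunk by 24 h, when the difference was -0.29 and not called (24 h minus 9 h, 0.97 ± 0.12 SE, adjusted p = 2.53e-06). Abcc8, its neighbour on chromosome 1 at a distance of 97.1 kb, encodes the sulphonylurea receptor known from pancreatic beta cells. It was lower with APAP at 6 h (-1.04 ± 0.14 SE) and 9 h (-1.09 ± 0.11 SE), while vehicle livers exceeded baseline livers by 0.72 and 0.77 at those times. Against baseline, APAP livers differed by -0.32 at both times, and neither was called. Abcc5, which exports cyclic nucleotides, differed by -0.16, -0.35, 0.11 and 0.25 at 3, 6, 9 and 24 h, and none of these was called.

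**Figure D2:**
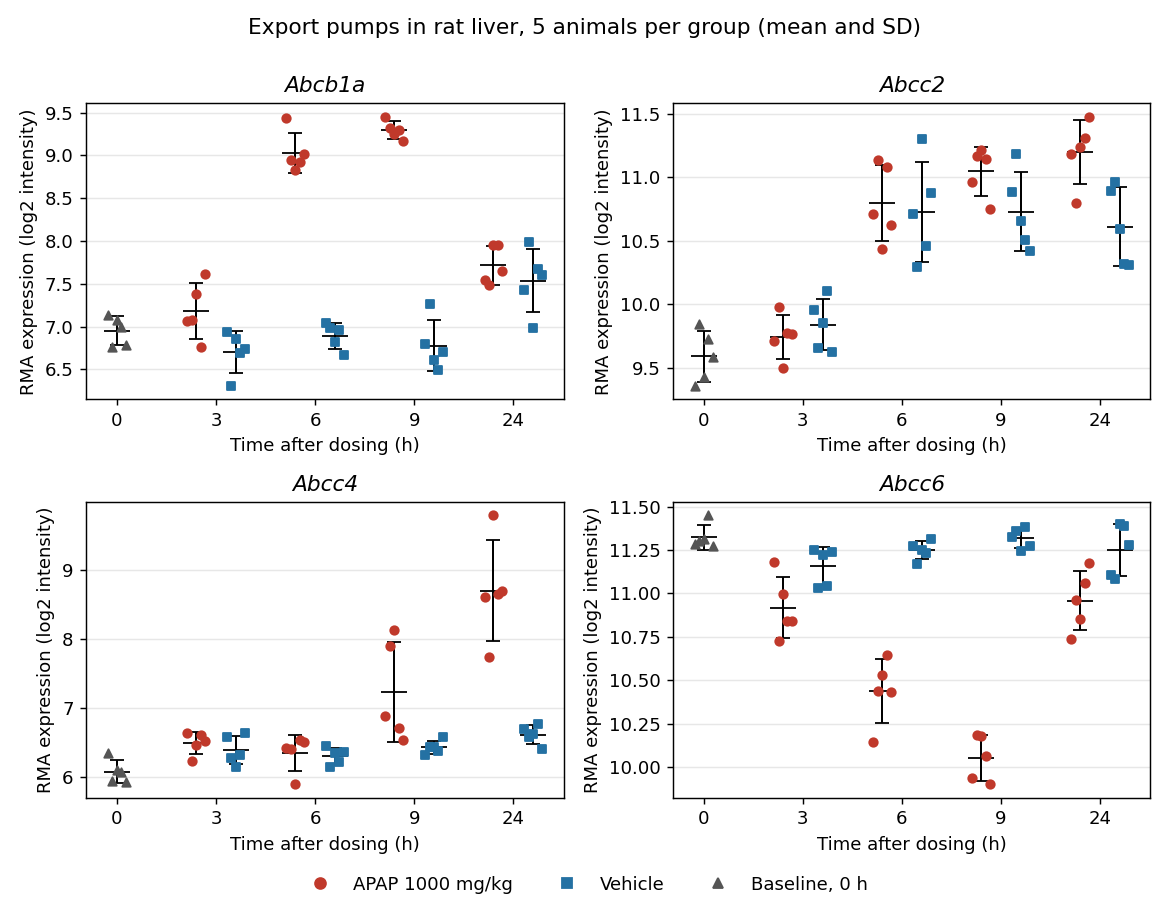
RMA log2 intensity (vertical axes, each with its own range) of Abcb1a, Abcc2, Abcc4 and Abcc6 against time after dosing in h; points are animals, red circles APAP, blue squares vehicle and grey triangles baseline, and black bars give the group mean and SD (n = 5). The APAP and vehicle points of Abcb1a separate at 6 and 9 h, those of Abcc4 at 24 h, and those of Abcc6 are furthest apart at 9 h, while Abcc2 is higher than baseline in both APAP and vehicle livers at 6, 9 and 24 h.

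Abcg2 encodes Bcrp, a canalicular pump for sulphate conjugates and porphyrins. At 9 h it was at 8.56, 8.08, 8.08, 8.04 and 8.38 in APAP livers, against 9.48, 9.24, 9.06, 9.00 and 9.21 in vehicle livers. The lowest vehicle liver was above the highest APAP liver, and the decrease was 1.96-fold (-0.97 ± 0.12 SE, adjusted p = 2.90e-05), after 1.73-fold at 6 h (-0.79 ± 0.13 SE, adjusted p = 0.000321). Vehicle livers had themselves moved up from baseline by 0.78 at 9 h (adjusted p = 0.0048) and 0.73 at 24 h (adjusted p = 0.0106), and APAP livers differed from baseline by -0.39 at 6 h (adjusted p = 0.132) and -0.20 at 9 h (adjusted p = 0.433).

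Of the 8 Abca genes, 4 were called lower and none higher, where 11.9% of all genes were called lower and 12.2% higher at any of the 4 times. Abca8a was the furthest down, at 8.97, 8.71, 9.15, 9.20 and 8.97 in APAP livers at 9 h, against 10.81, 10.54, 10.67, 10.43 and 10.58 in vehicle livers, a 3.04-fold decrease without overlap (-1.61 ± 0.10 SE, adjusted p = 1.10e-07) that followed one of 1.99-fold at 6 h. Its neighbour Abca8, which lies 11.2 kb away on chromosome 10, was lower at 9 h only among the 4 times (-0.68 ± 0.17 SE, adjusted p = 0.00581), and that call was lost without vehicle replicate 1 (-0.58) or 2 (-0.55), where the change fell under 1.5-fold. The 2 genes are close relatives, and how well the array separates them was not tested. Abca1, which passes cholesterol to apolipoprotein A-I, was lower at 6 h (-0.68 ± 0.09 SE, adjusted p = 4.58e-05) and 9 h (-0.63 ± 0.11 SE, adjusted p = 0.000564); the 9 h value fell under 1.5-fold without APAP replicate 2 (-0.58) or vehicle replicate 3 (-0.56), or after cyclic loess normalization (-0.58). Vehicle livers at 6 h were 0.68 above baseline (adjusted p = 0.000526), and APAP livers differed from baseline by 0.00 at 6 h (adjusted p = 0.98) and -0.07 at 9 h (adjusted p = 0.648). The liver X receptor Nr1h3, a known activator of Abca1, was lower at 3 h (-0.92 ± 0.09 SE), 6 h (-1.57 ± 0.07 SE) and 9 h (-1.97 ± 0.08 SE), and a link between the 2 genes was not tested. Abca3, known for lipid packing in lung, was lower at 6 h (-0.62 ± 0.06 SE, adjusted p = 3.31e-06) and fell under 1.5-fold after cyclic loess normalization (-0.58) or against baseline (-0.50).

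A set of genes was high in fasted baseline livers and lower in vehicle livers after feeding, and for these the APAP effect depends on which control it is set against. Vehicle livers differed from baseline livers in 2 of the 60 genes at 3 h (0 higher and 2 lower, 3.33%, against 3.55% of all genes), 9 at 6 h (5 higher and 4 lower, 15.0% against 5.02%), 11 at 9 h (5 higher and 6 lower, 18.3% against 6.4%) and 13 at 24 h (6 higher and 7 lower, 21.7% against 6.55%). The shares of all genes called higher in vehicle livers were 1.7%, 2.7%, 3.48% and 3.62% at 3, 6, 9 and 24 h, and those called lower were 1.85%, 2.33%, 2.92% and 2.93%. After ribosomal centring, which moves the median of all genes by -0.233 at 6 h and -0.307 at 9 h, the split was 3 higher and 5 lower at 6 h and 3 higher and 10 lower at 9 h. Over all genes that split was 174 higher and 811 lower at 6 h, and 194 higher and 1370 lower at 9 h. Set against baseline in place of vehicle, APAP livers differed in 1, 13, 20 and 11 of the 60 genes at 3, 6, 9 and 24 h, beside 3.83%, 10.7%, 15% and 8.43% of all genes. Each vehicle comparison uses the same 5 baseline animals, and each vehicle group also serves as the control of an APAP comparison.

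Slc22a5 encodes Octn2, the carnitine carrier that feeds mitochondrial fatty acid oxidation and a known target of the fasting receptor Ppara. At 3 h the level was 10.65, 10.95, 10.85, 11.00 and 11.01 in APAP livers, against 9.65, 9.28, 9.73, 10.13 and 9.70 in vehicle livers. At 6 h it was 9.76, 9.59, 10.28, 9.47 and 9.85 in APAP livers, against 8.73, 8.73, 8.62, 8.64 and 8.13 in vehicle livers, and baseline livers had 11.19, 11.33, 11.35, 10.96 and 11.14. The APAP mean lay between the vehicle and baseline means at both times, and no APAP liver overlapped the vehicle livers. APAP exceeded vehicle 2.28-fold at 3 h (1.19 ± 0.13 SE, adjusted p = 3.37e-05), 2.33-fold at 6 h (1.22 ± 0.15 SE, adjusted p = 3.14e-05) and 1.91-fold at 9 h (0.93 ± 0.16 SE, adjusted p = 0.000532), and the difference was -0.07 ± 0.18 SE at 24 h (24 h minus 9 h, -1.0 ± 0.26 SE, adjusted p = 0.00463). Vehicle livers were below baseline by 2.82-fold, 6.17-fold, 6.74-fold and 5.52-fold at 3, 6, 9 and 24 h. Against baseline, APAP livers differed by -0.30, -1.40, -1.82 and -2.54 at these times, so the sign of the APAP effect turned at 3, 6 and 9 h with the choice of control. Ppara itself was higher in APAP than in vehicle livers at 3 h (0.93 ± 0.10 SE, adjusted p = 4.23e-05) and was below vehicle at 9 h (-0.73 ± 0.12 SE, adjusted p = 0.00025). It was lower in vehicle than in baseline livers at every time, by -1.16, -0.64, -0.79 and -0.62. A link between Ppara and Slc22a5 was not tested.

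Abcb4 (Mdr2 in rodents) moves phosphatidylcholine into bile and lies 148.0 kb from Abcb1a on chromosome 4. At 3 h it was 10.92, 11.33, 11.22, 11.16 and 11.43 in APAP livers, against 10.06, 10.03, 10.26, 10.66 and 10.11 in vehicle livers and 11.01, 11.06, 10.87, 10.76 and 11.02 at baseline. APAP livers were all above vehicle livers and around the baseline level. The APAP difference was 1.98-fold at 3 h (0.99 ± 0.13 SE, adjusted p = 0.000114), 1.56-fold at 6 h (0.64 ± 0.11 SE, adjusted p = 0.000285) and 1.61-fold at 9 h (0.69 ± 0.17 SE, adjusted p = 0.00633), and -0.29 at 24 h. The 6 h call fell under 1.5-fold without APAP replicate 3 (0.57) or vehicle replicate 5 (0.58), and the 9 h call without APAP replicate 5 (0.57) or after ribosomal centring (0.58). Vehicle livers were lower than baseline at all 4 times, by 1.65-fold, 2.0-fold, 2.89-fold and 4.08-fold, and APAP livers differed from baseline by 0.27, -0.36, -0.85 and -2.32. The APAP effect on Abcb1a was greatest at 9 h among the 4 times and that on Abcb4 at 3 h.

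Abcg5 and Abcg8 encode the 2 parts of the canalicular sterol pump, and the pair separated from vehicle at 24 h only among the 4 times. Abcg5 had 10.11, 8.84, 9.61, 9.61 and 10.14 in APAP livers at 24 h, against 7.97, 7.56, 7.89, 7.82 and 7.92 in vehicle livers and 10.10, 10.23, 10.30, 10.10 and 10.03 at baseline. Abcg8 had 7.33, 6.88, 7.45, 7.02 and 7.45 in APAP livers, against 6.55, 6.36, 6.33, 6.38 and 6.50 in vehicle livers and 7.69, 7.51, 7.90, 7.51 and 7.47 at baseline. APAP replicate 2 was the lowest of its group for both genes and still above every vehicle liver. The APAP differences were 3.55-fold for Abcg5 (1.83 ± 0.21 SE, adjusted p = 0.00019) and 1.74-fold for Abcg8 (0.80 ± 0.11 SE, adjusted p = 0.000826). Both effects were larger at 24 h than at 9 h, by 1.51 ± 0.31 SE (adjusted p = 0.000719) and 0.81 ± 0.22 SE (adjusted p = 0.00605). Vehicle livers at 24 h were 4.98-fold below baseline for Abcg5 (adjusted p = 3.42e-09) and 2.28-fold below for Abcg8 (adjusted p = 1.32e-06), and APAP livers differed from baseline by -0.49 (adjusted p = 0.0963) and -0.39 (adjusted p = 0.0353), neither being called. With ribosomal centring, Abcg8 at 24 h was 0.25 above vehicle and lost its call.

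The 205 bases between the Abcg5 and Abcg8 starts are shown because the 2 genes run head to head and moved together at 24 h. They are given on the Abcg5 strand (GRCr8, chr6:15717731-15717935), with a match to the antioxidant response element core TGACNNNGC in capitals, 28 bases before the Abcg5 start.
Abcg5-Abcg8: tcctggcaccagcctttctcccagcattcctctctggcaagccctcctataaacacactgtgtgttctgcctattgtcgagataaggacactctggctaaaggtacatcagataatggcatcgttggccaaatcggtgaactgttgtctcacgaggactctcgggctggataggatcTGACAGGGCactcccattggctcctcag
The motif was found on either strand in 12.1% of all RefSeq windows and in 6 of the 50 windows of the transporter genes (12.0%), which include those of Abcg5, Abcg8, Abcc2, Slc22a23, Abca5 and Abcc10. The matches in the Abcg5 and Abcg8 windows are the same bases, read from opposite strands. A stretch in which GC follows TGACTCA would count under both this motif and the AP-1 site.

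**Figure D3:**
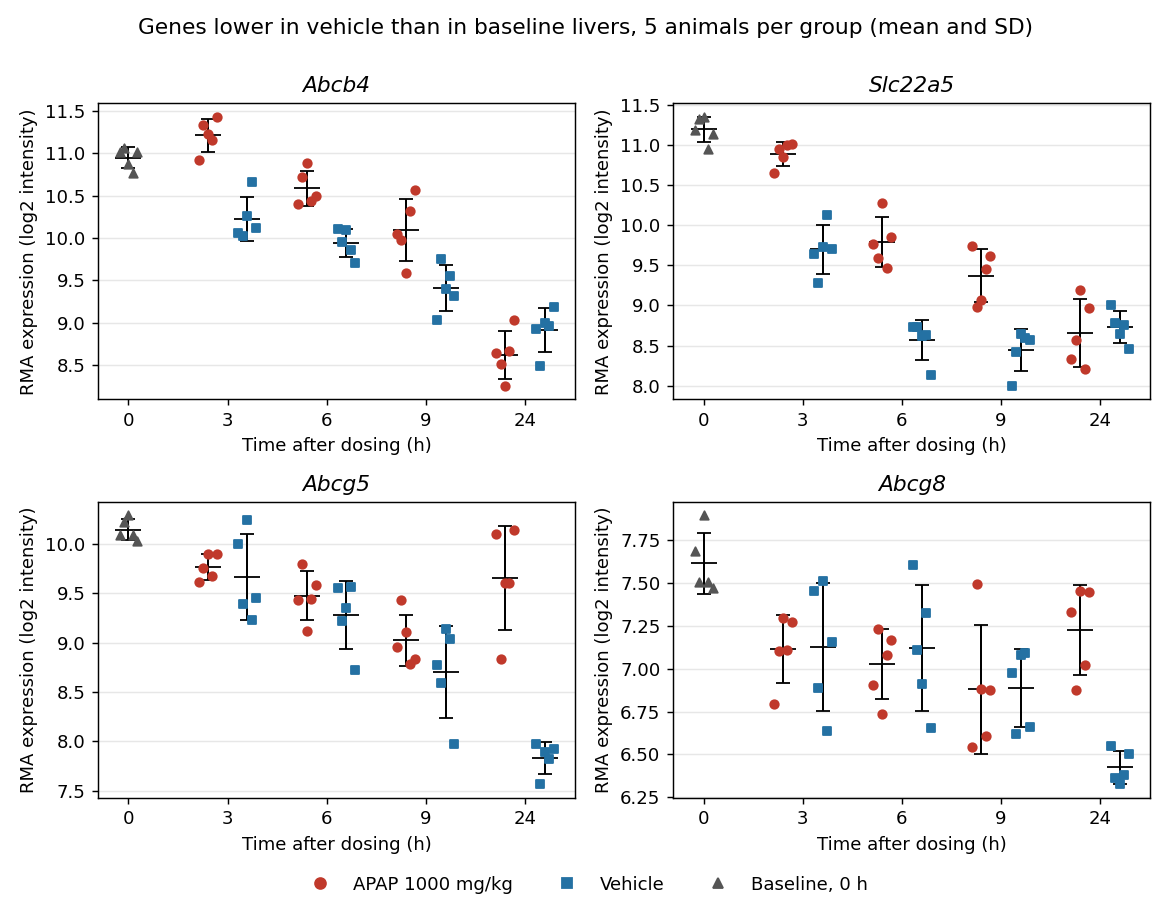
RMA log2 intensity (vertical axes, each with its own range) of Abcb4, Slc22a5, Abcg5 and Abcg8 against time after dosing in h; points are animals, red circles APAP, blue squares vehicle and grey triangles baseline, and black bars give the group mean and SD (n = 5). Vehicle points of each gene lie below baseline by 24 h, APAP points lie above vehicle at 3 and 6 h for Abcb4 and Slc22a5, and at 24 h for Abcg5 and Abcg8.

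Of the ABC genes that were called in vehicle livers alone, a pair belongs to peroxisomes. Abcd3, which encodes a major protein of the peroxisomal membrane, was lower in vehicle than in baseline livers by -0.98 at 6 h (adjusted p = 1.67e-07), -0.98 at 9 h and -0.65 at 24 h, and its APAP differences of 0.49, 0.51, 0.04 and -0.50 were under 1.5-fold, though the 6 h value passed after cyclic loess normalization (0.67). Abcd2, a fatty acyl transporter of peroxisomes, was lower in vehicle livers by -1.20 at 9 h and -1.21 at 24 h. Abcb9, a lysosomal peptide transporter, was higher in vehicle livers at 24 h, at 6.34, 5.67, 6.90, 5.82 and 6.63, against 5.38, 5.21, 5.38, 5.42 and 5.45 at baseline (1.87-fold, adjusted p = 0.00544). None of the 3 was called with APAP, but Abcb9 differed by -0.62 at 24 h (adjusted p = 0.0687) and was called in the fit of all 45 arrays (adjusted p = 0.000501), without vehicle replicate 2 (-0.78, adjusted p = 0.0172) or 4 (-0.74, adjusted p = 0.0402). After ribosomal centring Abcb9 (-1.18), Abcd2 (-0.89) and Abcd3 (-1.05) were called lower at 24 h. Abcb9 and Abcd2 were among the 25% dimmest genes, so their vehicle calls drop out where these are removed.

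Among uptake genes, the Slco family held 5 of the 9 genes called with APAP, all lower. The family has 12 genes, and 11.9% of all genes were called lower at any of the 4 times. Slco1a2, the symbol on the array sheet for the gene now named Slco1a4 in rat, encodes Oatp2, a basolateral carrier of bile salts, steroid conjugates and digoxin. At 3 h it had 9.59, 8.90, 8.97, 8.83 and 9.12 in APAP livers, against 10.77, 9.68, 10.93, 9.27 and 10.55 in vehicle livers. At 6 h it had 9.07, 8.93, 8.13, 9.76 and 8.75 in APAP livers, against 10.78, 10.81, 10.91, 11.29 and 10.22 in vehicle livers. At 24 h it had 10.40, 10.12, 9.71, 9.85 and 9.77 in APAP livers, against 11.13, 10.85, 11.12, 10.99 and 11.27 in vehicle livers. The groups overlapped at 3 h, through vehicle replicate 4, and were apart at 6, 9 and 24 h. It was the only gene of the 60 called at all 4 times, 2.23-fold, 3.67-fold, 3.61-fold and 2.14-fold lower at 3, 6, 9 and 24 h, with adjusted p = 0.0105, 7.54e-05, 3.65e-05 and 0.000238. Vehicle livers were above baseline at 6, 9 and 24 h, by 1.18, 1.16 and 1.45, and APAP livers differed from baseline by -0.54, -0.69, -0.69 and 0.35 at the 4 times, so that the sign at 24 h turned with the control.

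The 250 bases before the start of this gene are shown because it was called at every time (minus strand, GRCr8, chr4:176495847-176496096). The capitals mark a match to the E-box CACGTG, which was present in 6.42% of all RefSeq windows and in 3 of the 50 transporter windows (6.0%), the others being those of Abca1 and Abcb6.
Slco1a2: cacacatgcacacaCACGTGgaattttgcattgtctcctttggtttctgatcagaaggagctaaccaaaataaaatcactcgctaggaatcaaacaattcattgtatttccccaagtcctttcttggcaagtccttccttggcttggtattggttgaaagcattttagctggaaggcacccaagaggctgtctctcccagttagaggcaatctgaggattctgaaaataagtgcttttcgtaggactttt
The last motif searched, the xenobiotic response element core GCGTG, was found on either strand in 29.7% of all windows and in 23 of the 50 transporter windows (46.0%), and the windows of Abcb1a and Slco1a2 did not hold it. No test was made of these shares.

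Slco1a2 lies on chromosome 4 in a row with Slco1c1, Slco1b2, Slco1a1, Slco1a6 and Slco1a5, with 38.2 to 121.0 kb between neighbours, and only Slco1b2 and Slco1a1 of these neighbours were called at any time with APAP. Slco1b2 encodes the liver-specific Oatp that takes up bile salts and bilirubin conjugates. At 24 h it had 9.93, 10.35, 9.53, 10.25 and 10.67 in APAP livers, against 11.26, 10.96, 11.14, 10.94 and 10.98 in vehicle livers, which did not overlap. This was a 1.87-fold decrease (-0.91 ± 0.17 SE, adjusted p = 0.0055), on top of a 1.77-fold lower level in vehicle than in baseline livers (adjusted p = 4.17e-05). The differences of -0.53 at 6 h and -0.57 at 9 h had adjusted p of 0.000571 and 0.000477 but were under 1.5-fold. Slco1a1 (Oatp1) was lower at 9 h (-0.63 ± 0.09 SE, adjusted p = 0.000141) and 24 h (-0.61 ± 0.15 SE, adjusted p = 0.0225). The 9 h call was lost without APAP replicate 2 or 3 (-0.58 in each) or after cyclic loess normalization (-0.48), and the 24 h call without APAP replicate 3 (-0.47, adjusted p = 0.0185) or vehicle replicate 1 (-0.53, adjusted p = 0.0531) or 5 (-0.58, adjusted p = 0.0542). Slco1a5 stayed between -0.13 and 0.02 and was not called.

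Slco2a1 encodes the prostaglandin transporter, which is also made by endothelial cells. At 9 h it was at 8.94, 8.92, 9.11, 9.30 and 8.90 in APAP livers, against 10.94, 10.68, 10.94, 10.89 and 10.66 in vehicle livers. At 24 h it was at 10.74, 11.24, 11.10, 10.67 and 11.07 in APAP livers, against 11.10, 10.92, 10.91, 10.99 and 10.89 in vehicle livers. The groups were apart at 9 h, and at 24 h the vehicle range lay inside the APAP range. The decreases were 1.58-fold at 3 h (-0.66 ± 0.14 SE, adjusted p = 0.00401), 2.59-fold at 6 h (-1.37 ± 0.14 SE, adjusted p = 6.81e-06) and 3.46-fold at 9 h (-1.79 ± 0.09 SE, adjusted p = 2.97e-08), and the difference at 24 h was 0.00 ± 0.11 SE, a change of 1.79 ± 0.15 SE between 9 and 24 h (adjusted p = 1.43e-08). The 3 h call fell under 1.5-fold without APAP replicate 3 (-0.55) or after cyclic loess normalization (-0.58). Vehicle livers were above baseline by 1.05, 1.09 and 1.22 at 6, 9 and 24 h. Against baseline, APAP livers differed by -0.12 at 3 h and -0.32 at 6 h, neither called, by -0.70 at 9 h (adjusted p = 0.00154) and by 1.23 at 24 h (adjusted p = 0.000104, called higher). The 4 measured endothelial markers of 6 averaged 8.70 to 9.07 in APAP livers at 9 h, against 8.96 to 9.13 in vehicle livers, and 9.13 to 9.25 in APAP livers at 6 h, against 8.85 to 8.98 in vehicle livers. Of these 4, Kdr was called lower at 9 h (-0.73) and Lyve1 higher at 6 h (0.60).

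Slco2b1 encodes a broad-specificity basolateral Oatp. At 6 h it was at 8.58, 8.95, 8.77, 8.98 and 8.79 in APAP livers, against 9.66, 9.60, 9.64, 9.92 and 9.60 in vehicle livers. The groups were apart and the decrease was 1.82-fold (-0.87 ± 0.09 SE, adjusted p = 5.82e-06), with 1.79-fold at 9 h (-0.84 ± 0.07 SE, adjusted p = 1.51e-06). Vehicle livers differed from baseline by at most -0.23 for this gene, and APAP livers at 6 h were below baseline by -1.06 (adjusted p = 1.29e-06). Slco3a1 and Slco4a1 were within -0.17 and 0.08 of vehicle at all times.

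**Figure D4:**
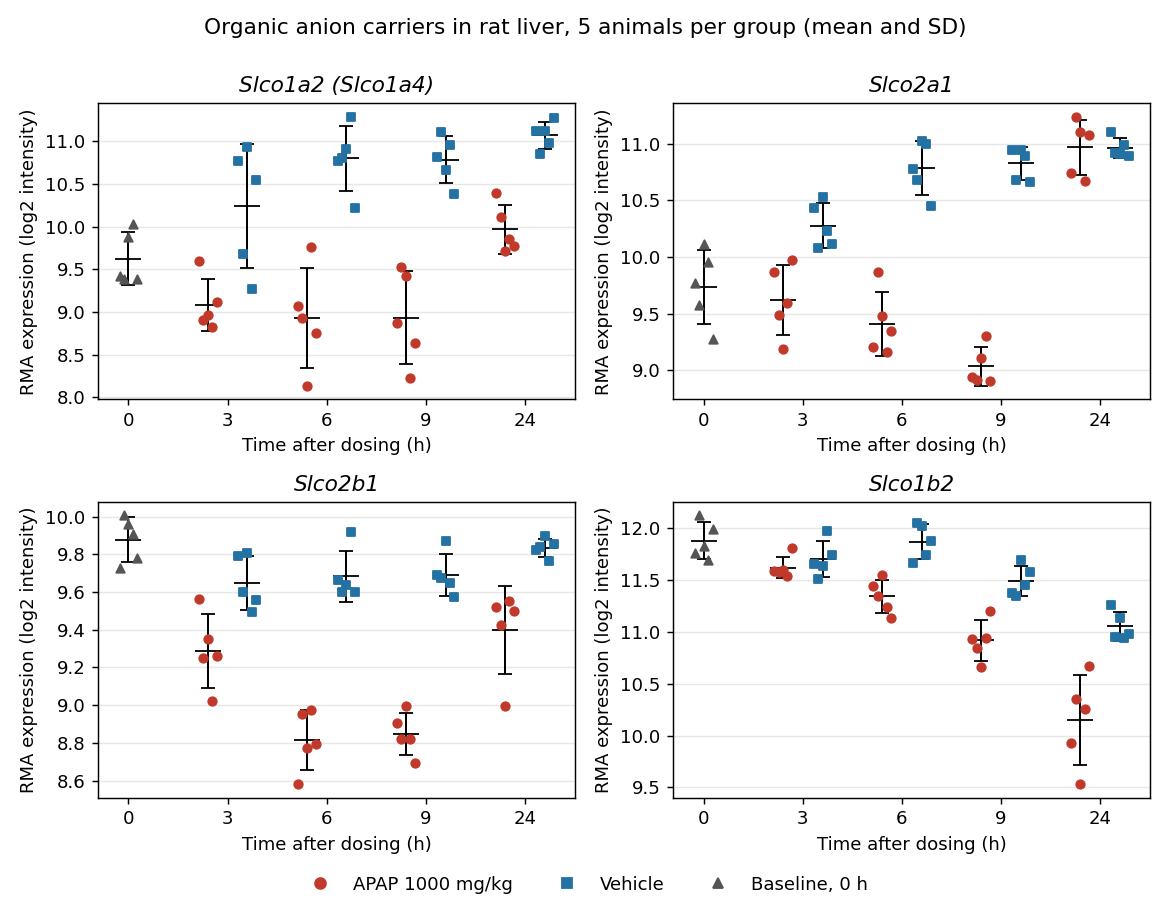
RMA log2 intensity (vertical axes, each with its own range) of Slco1a2 (Slco1a4), Slco2a1, Slco2b1 and Slco1b2 against time after dosing in h; points are animals, red circles APAP, blue squares vehicle and grey triangles baseline, and black bars give the group mean and SD (n = 5). Slco2a1 is lowest against vehicle at 9 h and level with it at 24 h, Slco1b2 is furthest below vehicle at 24 h, and Slco1a2 is below vehicle at all 4 times.

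Of the 15 Slc22 genes, 4 were called with APAP, where 23.4% of all genes were called at any of the 4 times. The 4 were Slc22a5 and, all lower, Slc22a23, Slc22a8 and Slc22a18. Slc22a23, a carrier without a settled substrate, had 7.36, 7.47, 7.16, 7.45 and 7.28 in APAP livers at 6 h, against 8.37, 8.22, 8.86, 8.36 and 8.32 in vehicle livers, a 2.12-fold decrease without overlap (-1.08 ± 0.11 SE, adjusted p = 6.53e-06). It was also lower at 3 h (-0.63 ± 0.12 SE) and 9 h (-0.92 ± 0.10 SE), and the 3 h call fell under 1.5-fold without APAP replicate 1 (-0.58) or vehicle replicate 5 (-0.55). Slc22a8 (Oat3, an organic anion exchanger) was lower at 9 h (-0.68 ± 0.11 SE, adjusted p = 0.000376), and so was Slc22a18 (-0.62 ± 0.06 SE, adjusted p = 3.37e-06); after cyclic loess normalization both were under 1.5-fold (-0.53 and -0.44). Against baseline, Slc22a18 at 9 h (-0.32) and Slc22a23 at 3 h (-0.47) were under 1.5-fold as well. Slc22a7 (Oat2, an organic anion carrier) differed by -0.51 at 9 h (adjusted p = 0.000235), without overlap but under 1.5-fold. Slc22a3 (Oct3) stayed between -0.05 and 0.02.

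Of the 43 calls made with APAP over the 4 times, 39 had APAP and vehicle groups that did not overlap (90.7%, against 93.3% of the calls over all genes). Over all 60 genes, groups did not overlap for 13, 29, 24 and 12 genes at 3, 6, 9 and 24 h, where the shares over all genes were 20.2%, 33.1%, 35% and 10.1%. Neither APAP nor vehicle comparisons called 34 of the 60 genes. The share of all genes left uncalled by both kinds of comparison was not counted, so this number has no background beside it. The 27 genes not named by the rule lay between -0.48 and 0.54 against vehicle over the 4 times.

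The change of the APAP effect between neighbouring times was tested directly. Between 3 and 6 h, 4 of the 60 genes differed (1 upward and 3 downward, 6.67%, against 6.9% of all genes, of which 4.18% upward and 2.72% downward): Abcb1a, Abca8a, Abcc8 and Slco2a1. Between 6 and 9 h the test called Abca8a alone, with -0.61 ± 0.14 SE (1.67% of the 60 genes, against 3.13% of all genes, of which 1.66% upward and 1.46% downward). Between 9 and 24 h, 15 differed (25% against 16.4%), 12 upward and 3 downward, where 8.4% of all genes moved upward and 8.03% downward. The split was 8 and 4 after cyclic loess normalization and 3 and 10 after ribosomal centring, which moves the median of all genes by -0.405 in this test. Over all genes these splits were 913 and 1326 after cyclic loess normalization, and 340 and 3496 after ribosomal centring. The 3 downward genes were Abcb1a, Abcb4 and Slc22a5, which were called higher with APAP at 9 h and were not called at 24 h (0.18, -0.29 and -0.07). Upward changes were of 2 kinds: Abcc4, Abcg5 and Abcg8 were above vehicle at 24 h by more than at 9 h (Abcg8 differed by -0.01 at 9 h), while Slco2a1, Abca8a, Abcc6, Abcc8, Abca8, Slco1a2, Slc22a18 and Abca1 were closer to vehicle than at 9 h. Abcb6, a porphyrin transporter outside the named genes, was the remaining one (0.74, adjusted p = 0.000194), with APAP differences of -0.22 at 9 h and 0.52 at 24 h that were not called.

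Calls of 3 genes between times were lost when single animals were left out. That of Abca8a between 3 and 6 h was lost without APAP 3 h replicate 2, 4 or 5, APAP 6 h replicate 2 or 5, vehicle 3 h replicate 2 or vehicle 6 h replicate 1 or 3 (-0.71 to -0.58, adjusted p = 0.0506 to 0.0635), and that between 6 and 9 h fell under 1.5-fold without APAP 6 h replicate 3, APAP 9 h replicate 2, vehicle 6 h replicate 5 or vehicle 9 h replicate 1 (-0.56 to -0.54). That of Abca1 was lost without APAP 24 h replicate 1 or 5, APAP 9 h replicate 2, vehicle 24 h replicate 3 or 4 or vehicle 9 h replicate 2 or 3 (0.53 to 0.57, adjusted p = 0.0503 to 0.0572). That of Slco1a2 was lost without APAP 24 h replicate 1, 2 or 4, APAP 9 h replicate 1, 4 or 5, or replicate 1, 2, 3 or 4 of vehicle at 24 h or at 9 h (0.57 to 0.78, adjusted p = 0.0545 to 0.0931). After ribosomal centring the calls of Abcc4 (0.84, adjusted p = 0.0559), Abcg8 (0.36), Abcc6 (0.53), Abcc8 (0.46), Abca8 (0.35), Abca1 (0.16), Slco1a2 (0.31), Slc22a18 (0.27) and Abcb6 (0.30) between 9 and 24 h were lost, and after cyclic loess normalization those of Abca1 (0.52), Slco1a2 (0.57), Slc22a18 (0.48) and Abcb6 (0.57) were lost, as was that of Abca8a between 3 and 6 h (-0.66, adjusted p = 0.0569). In a single fit of all 45 arrays the calls of Abca8a between 6 and 9 h (adjusted p = 0.122) and of Slco1a2 between 9 and 24 h (adjusted p = 0.114) were lost.

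Genes that act with these transporters were read from the same fits. Links between their changes and those of the transporters were not tested. Of 17 listed regulators 16 were measured. At 3 h, 4 of them were called higher and 4 lower, at 6 h the numbers were 2 and 3, at 9 h all 4 calls were lower, and at 24 h 0 of 16 were called. Beside Nr1i2, Nr1h3 and Ppara, the aryl hydrocarbon receptor Ahr was higher at 3 h (0.74) and 6 h (0.59), Nfe2l2 (Nrf2, the oxidative stress factor) was lower at 3 h (-0.59), and the liver factors Foxa2 (-1.55) and Cebpa (-0.99) were lower at 3 h. The bile acid receptor Nr1h4 (FXR) was lower at 9 h (-1.66 ± 0.10 SE, adjusted p = 6.95e-08), and its target Nr0b2 (SHP) differed by 0.97 at 3 h, -1.57 at 6 h and -2.24 at 9 h, all 3 called. The bile salt export pump Abcb11, an FXR target left out by the rule, differed by -0.60 at 9 h and -0.80 at 24 h. Of the 10 scaffold and trafficking genes, which hold transporters at the membrane, 0, 2, 2 and 0 were higher and 1, 3, 1 and 0 lower at 3, 6, 9 and 24 h. Myo5b, the motor for recycling to the canalicular membrane, was higher at 6 h (2.0 ± 0.22 SE) and 9 h (1.08 ± 0.08 SE), as was the membrane linker Ezr (0.94 and 1.08). The scaffold Pdzk1 was lower at 6 and 9 h (-0.81 and -1.23), and the canalicular flippase Atp8b1 at 6 h (-1.17).

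Of 8 measured APAP conjugation genes of 11 listed, whose products feed the export pumps, 1 was lower at 3 h and 6 h, 2 were higher and 2 lower at 9 h, and 4 were higher at 24 h. Gstp1, a glutathione transferase, was higher at 9 h (1.6 ± 0.09 SE) and 24 h (4.08 ± 0.17 SE, adjusted p = 1.93e-07). Ugdh, which makes UDP-glucuronic acid for glucuronide formation, was higher at 9 h (1.06) and 24 h (1.35). Gsta3 was lower at 3, 6 and 9 h (-1.09, -0.88 and -0.84) and higher at 24 h (1.42), when Gstm1 was higher as well (0.80).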

How the data were processed

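Liver RNA of 45 rats was hybridised to Affymetrix whole-genome rat arrays. The deposited log2 values were made by the authors with robust multi-array averaging (affy 1.64.0 in R 3.6.1, with a custom probe annotation that joins probes per gene), which corrects background, quantile-normalises and summarises. Quantile normalization forces equal distributions, so a shift common to most genes is not seen. The value table held 13877 genes with values between 3.48 and 15.07, and gene symbols came from the deposited annotation sheet, whose 45 value columns were not used here. Of the gene IDs, 13530 matched a current RefSeq table, all 60 transporter genes among them.

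Each comparison was fitted on its own groups with limma 3.58.1 (lmFit and eBayes, R 4.3.3) without covariates, with Benjamini-Hochberg adjustment over all genes. Errors on fold changes are standard errors, and replicates are separate animals. Promoter windows came from RefSeq (GRCr8). Python 3.11.15 and matplotlib 3.10.9 were used for counts and figures. The tests were checked on simulated data with known changes. With 5 arrays per group the number of animals limits the precision.

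Genes were named if they belonged to a panel of 26 known liver transporters, of which 23 were measured, were called with APAP at any time, or were among up to 5 further genes with the largest called change in vehicle livers. This gave 33 genes, of which 2 are not reported here. Abcb1b, Abcc1 and Slc47a1 were not analysed here. The members and all gene lists (regulators, scaffolds, conjugation enzymes and cell type markers) were chosen with earlier results of these data known. Alternatives covered the samples in the fit, variance prior, dim genes, normalization, scaling, thresholds, pairing, single animals and the control group.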

Additional observations from a re-analysis of the deposited data

Results flagged for a closer look

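In 15 of 279 sets of 5 animals (each of 31 named genes in each group), the highest or lowest animal stood apart from the other 4 by more than 0.71 of the whole range of the set, Dixon's critical value, a share close to the 5% that chance gives. Among APAP animals, Abcc4 at 6 h was low in replicate 3 (5.89, others 6.41 to 6.54), Slc22a3 at 6 h was low in replicate 4 (4.27, others 4.34 to 4.35), Slco2b1 at 24 h was low in replicate 3 (8.99, others 9.42 to 9.55), and at 3 h replicate 5 was high for Slc22a7 (12.12, others 11.90 to 11.93) and Slco1b2 (11.81, others 11.54 to 11.59). Among vehicle animals, Slc22a8 was low in replicate 2 at 6 h (9.90, others 10.95 to 11.09) and in replicate 2 at 24 h (10.06, others 10.91 to 11.24). At 6 h Slc22a23 was high in replicate 3 (8.86, others 8.22 to 8.37), Slco2b1 high in replicate 4 (9.92, others 9.60 to 9.66), Slc22a5 low in replicate 5 (8.13, others 8.62 to 8.73) and Slc22a7 low in replicate 4 (11.85, others 12.09 to 12.17). At 9 h replicate 2 was low for Slc22a18 (12.45, others 12.60 to 12.62), and at 3 h replicate 1 was high for Slc22a18 (12.49, others 12.34 to 12.36). Among baseline animals, Abcb9 was low in replicate 2 (5.21, others 5.38 to 5.45) and Abcc6 high in replicate 4 (11.45, others 11.27 to 11.31).

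The APAP effect differed between neighbouring times in 20 tests of named genes and Abcb6. From 3 to 6 h the log2 effect moved by 1.67 for Abcb1a, -0.72 for Abca8a, -0.80 for Abcc8 and -0.71 for Slco2a1, and between 6 and 9 h by -0.61 for Abca8a. Between 9 and 24 h it moved by -2.35 for Abcb1a, -0.98 for Abcb4 and -1.0 for Slc22a5, and upward by 1.79 for Slco2a1, 1.51 for Abcg5, 1.29 for Abcc4, 1.09 for Abca8a, 0.97 for Abcc6, 0.90 for Abcc8, 0.81 for Abcg8, 0.79 for Abca8, 0.75 for Slco1a2, 0.74 for Abcb6, 0.71 for Slc22a18 and 0.61 for Abca1. The smallest margin was that of Slco1a2 (adjusted p = 0.0476, limma).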

How the results depend on the processing

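Counts are of the 60 genes called, except where all genes are named. Without a fold threshold the counts for APAP against vehicle were 18, 33, 33 and 15 at 3, 6, 9 and 24 h, and with a 2-fold threshold 2, 6, 6 and 3. For vehicle against baseline the counts were 12, 17, 23 and 25 without, and 1, 5, 7 and 8 at 2-fold. Over all genes they were 3090, 3629, 3916 and 3534 without, and 145, 198, 276 and 315 at 2-fold. For the change between times (3 to 6, 6 to 9 and 9 to 24 h) the counts were 11, 3 and 26 without, and 1, 0 and 6 at 2-fold. Over all genes they were 2703, 1225 and 4462 without, and 237, 109 and 834 at 2-fold. An adjusted p under 0.01 left 2 of the 4 for 3 to 6 h, and 823 of 957 over all genes. Baseline in place of vehicle gave 1 at 3 h and 11 at 24 h, beside 532 and 1170 of all genes. The planned ribosomal list had 1 of its 6 genes in the table and was not run, and 6 other ribosomal protein genes were used, chosen after seeing the data. This centring gave 27 at 24 h (2 higher and 25 lower), 5 for vehicle at 3 h, and 3 for 6 to 9 h. Over all genes it gave 5150 at 24 h (40 higher and 5110 lower), 592 for vehicle at 3 h, and 540 for 6 to 9 h. The fit of all 45 arrays gave 0 of the 60 for 6 to 9 h, and 457 of all genes.

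Leaving out an animal gave 4 to 6, 13 to 14, 14 to 17 and 5 to 9 for APAP, 2 to 3, 9 to 10, 11 to 12 and 12 to 15 for vehicle, and 3 to 5, 0 to 1 and 13 to 18 between times. Counts over all genes were not taken for these fits. In the 43 gene calls with APAP, 402 of these fits kept the call and 28 lost it. The other settings kept the call in 366 fits, lost it in 55 and turned the sign in 9, all with baseline as the control: Slc22a5 at 3, 6 and 9 h (-0.30, -1.40 and -1.82), Abcb4 at 6 and 9 h (-0.36 and -0.85), Abca1 at 6 h (0.0046), Abcg5 and Abcg8 at 24 h (-0.49 and -0.39) and Slco1a2 at 24 h (0.35).

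Same-numbered animals did not deviate together (9 of 40 correlations over 0.1, between -0.234 and 0.227), so no pairing by number was detected. These correlations cannot show whether the numbers follow a shared cage or order of handling. With a replicate block the counts were 6 for APAP at 24 h (Abcc2 lost, adjusted p = 0.0847), 12 for vehicle at 24 h and 3 for 3 to 6 h, with the other counts as before. Over all genes the block gave 473 for APAP at 24 h, 914 for vehicle at 24 h and 946 for 3 to 6 h. The sources used here give no scan date or array batch, and their part was not tested.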
